A study of Mus musculus with 13 samples.

Results

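Angiogenesis and endothelial genes were described here in MP tumors of the EPO-GEMM model and in normal mouse ovaries, from RNA of whole tissue. The members were the 10 rows of the deposited table named Vegfa, Kdr, Flt1, Angpt1, Angpt2, Tek, Tie1, Eng, Pecam1 and Cdh5, out of 53465 rows, and all 10 were among the 17277 genes tested. The table gives TPM (transcript abundance, in which read counts are divided by gene length and scaled to 1000000 in each library) for 3 ovaries of untreated wild-type (WT) C57BL/6 females and for 10 MP tumors. To make the tumors, the ovary of a C57BL/6 female aged 8 to 12 wk was electroporated with a transposon carrying MYC and with a vector carrying Cas9 and an sgRNA against Trp53 (MP). According to the paper, a Sleeping Beauty transposase was given with them and the fallopian tube was electroporated too. The vectors thus entered cells of these tissues in an otherwise unedited animal, with no promoter selecting a cell type named in the labels. The labels attach the same text, with females of that age, to the WT ovaries and give them no other age. All libraries came from whole tissue, were polyA-selected and were read from 1 end over 76 bp.

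The 13 libraries fell into 3 batches by a number in their names, whose meaning the labels do not give. MP tumors 1 to 3 shared batch 1 with all 3 ovaries, MP tumors 4 to 6 formed batch 2 and MP tumors 7 to 10 batch 3, so no ovary stood beside the later tumors. The WT libraries held 31445004 to 64013840 reads and the tumors 3892690 to 19906507, so that each ovary was read more deeply than any tumor. MP tumor 2 stood apart, with 55.1% of its TPM in 10 genes against 7.92% to 20.6% in the other tumors. Trp53 RNA was 83.7 ± 2.61 TPM (SD, n = 3) in WT ovaries, 4.30 to 26.0 in MP tumors 1 to 9 and 187 in MP tumor 10; small Cas9 edits need not lower an RNA, so this level does not check the label. The summed TPM of 14 granulosa and luteal markers was 31487 to 37869 in WT ovaries and 15.5 to 2207 in the tumors. Epcam, an epithelial marker, was 41.5 ± 6.70 TPM in ovaries and 0.348 to 15.7 in tumors. It does not stand for all epithelial markers, whose summed TPM was 248 to 280 in ovaries and 8.39 to 1153 in tumors.

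Blood vessels sprout and are held stable through a small set of ligands and endothelial receptors. VEGF-A, secreted by many cell types and induced by low oxygen, drives endothelial growth through VEGFR2 (Kdr), while VEGFR1 (Flt1) binds the same ligand tightly and can act as a trap. Angiopoietin 1 activates the receptor TIE2 (Tek) and quiets vessels, angiopoietin 2 is released by endothelial cells and can oppose it, and TIE1 is the partner receptor of TIE2. Endoglin (Eng) is a co-receptor for BMP9 and TGF-beta ligands, and PECAM1 and VE-cadherin (Cdh5) sit at endothelial junctions. The adult ovary, unlike most adult organs, grows and loses vessels in each reproductive cycle. In the table (GRCm38), the VEGF genes are Vegfa (chr17:46016993-46032369), Kdr (chr5:75932827-75978458) and Flt1 (chr5:147561604-147726011). The angiopoietins and their receptors are Angpt1 (chr15:42424723-42676977), Angpt2 (chr8:18690263-18741562), Tek (chr4:94739289-94874976) and Tie1 (chr4:118471191-118490061), and the remaining members are Eng (chr2:32646595-32682669), Pecam1 (chr11:106654217-106750628) and Cdh5 (chr8:104101625-104144511). All are protein-coding, and each value covers the gene's exons.

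To show the regulatory sequence next to the values, the 250 bases before the RefSeq start (GRCm38.p6) are printed for the 4 genes that passed the test as lower in tumors and for the outer of the 2 starts of Vegfa, which did not. Of the 10 members, 6 had an entry in the promoter table. Capitals mark GGAAG, the core bound by ETS factors, and GGGCGG, the GC box, on either strand (read as CTTCC and CCGCCC on the other), and each sequence runs 5′ to 3′ on the strand of its gene.
Vegfa, chr17:46032378-46032627, minus strand: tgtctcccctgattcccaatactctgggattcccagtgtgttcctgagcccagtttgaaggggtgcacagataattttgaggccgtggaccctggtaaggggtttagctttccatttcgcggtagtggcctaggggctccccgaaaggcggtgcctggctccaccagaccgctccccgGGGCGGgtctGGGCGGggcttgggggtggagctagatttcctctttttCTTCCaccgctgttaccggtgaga
Kdr, chr5:75978456-75978705, minus strand: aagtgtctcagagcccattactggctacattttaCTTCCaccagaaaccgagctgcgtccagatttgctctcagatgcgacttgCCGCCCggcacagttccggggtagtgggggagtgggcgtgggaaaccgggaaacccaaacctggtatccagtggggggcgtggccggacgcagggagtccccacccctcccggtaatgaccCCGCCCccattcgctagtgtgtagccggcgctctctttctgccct
Flt1, chr5:147726012-147726261, minus strand: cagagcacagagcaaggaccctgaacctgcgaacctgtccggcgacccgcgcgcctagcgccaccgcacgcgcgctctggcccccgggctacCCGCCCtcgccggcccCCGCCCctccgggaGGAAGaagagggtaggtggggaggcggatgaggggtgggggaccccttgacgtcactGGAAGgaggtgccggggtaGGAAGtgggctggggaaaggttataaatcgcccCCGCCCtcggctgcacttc
Tek, chr4:94739039-94739288, plus strand: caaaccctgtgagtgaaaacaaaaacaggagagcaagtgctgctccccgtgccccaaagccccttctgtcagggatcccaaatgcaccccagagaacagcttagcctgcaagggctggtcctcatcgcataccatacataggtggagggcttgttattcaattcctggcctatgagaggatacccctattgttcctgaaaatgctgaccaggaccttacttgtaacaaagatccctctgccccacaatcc
Eng, chr2:32646345-32646594, plus strand: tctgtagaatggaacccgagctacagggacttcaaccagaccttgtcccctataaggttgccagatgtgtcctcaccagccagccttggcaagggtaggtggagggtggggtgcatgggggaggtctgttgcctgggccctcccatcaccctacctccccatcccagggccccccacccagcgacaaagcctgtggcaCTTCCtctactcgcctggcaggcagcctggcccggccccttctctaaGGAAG

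These windows differed in base composition, from 51.2% G and C for Tek to 70.4% for Flt1. GGAAG was found once before Vegfa and once before Kdr, 3 times before Flt1 and 2 times before Eng, and GGGCGG was found 2 times before Vegfa, 2 times before Kdr and 3 times before Flt1. The Tek window held neither. Over 32851 windows of the same length before genes of the table, 64.1% held GGAAG and 32.7% held GGGCGG, so the matches are a description of these windows and do not set the members apart. ACGTG, the core of the hypoxia response element, was in 16.6% of all windows and in none of the 5 printed. RefSeq gives Vegfa a second start, inside the gene, whose window (chr17:46025164-46025413) held ACGTG once, GGAAG once and GGGCGG once.

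Vegfa RNA in the tumors lay on both sides of the ovary level, and the difference between the groups did not pass the test. Vegfa was 68.6, 50.7 and 38.1 TPM in the 3 WT ovaries, and in the tumors its lowest value was 10.8, its median 45.0 and its highest 111 TPM. The groups overlapped: 5 tumors were below all ovaries, 3 above all of them and 2 within their range. All 3 batch 1 tumors were among the low ones, at 17.9, 11.3 and 10.8 TPM, batch 2 tumors had 53.9, 111 and 61.9, and batch 3 tumors had 36.2, 27.8, 80.3 and 75.9, of which the first and second were the other low ones. On the log2(TPM + 1) scale, tumors minus ovaries differed by -0.43 (SE 0.65, 95% confidence interval -1.81 to 0.95), which did not pass limma's test (Benjamini-Hochberg adjusted P = 0.647). The sign of that difference depended on scaling: it was 0.26 with median-of-ratios scaling. The median of all genes tested was -0.58 with TPM as deposited and -0.02 with that scaling, so values below are also read against it.

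The 2 receptors for VEGF-A were lower in the tumors. Kdr was 48.0, 44.2 and 32.9 TPM in WT ovaries, and 0.644 at lowest, 4.28 at the median and 33.0 at highest in the tumors. A single tumor, MP tumor 5, reached the lowest ovary, and the other 9 were below all ovaries. Kdr fell by 2.87 (SE 0.84; limma, Benjamini-Hochberg adjusted P = 0.0304), which is 2.29 below the median of all genes. Flt1 was 16.5, 14.2 and 10.8 TPM in WT ovaries and 0.177, 1.96 and 6.41 TPM at the lowest, median and highest tumor, with no overlap. Flt1 fell by 2.36 (SE 0.55; limma, Benjamini-Hochberg adjusted P = 0.00903). Both receptors were highest in MP tumors 5 and 9, and the batch 1 tumors were at or below 1.26 TPM for Kdr and 0.865 TPM for Flt1.

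**Figure D1:**
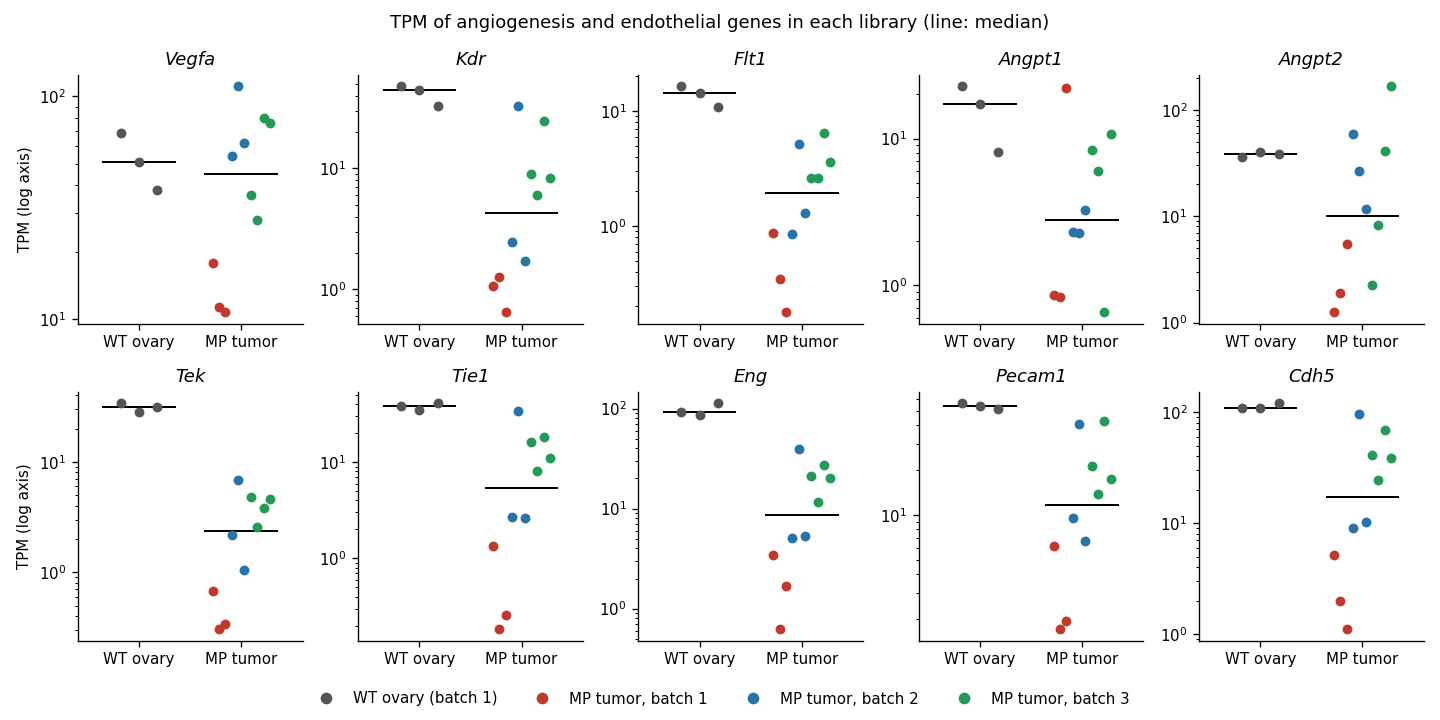
TPM of each of the 10 genes (log axis, a range of its own in each panel) in 3 WT ovaries and 10 MP tumors, each point a library coloured by batch and each line the group median. Flt1, Tek, Tie1, Eng, Pecam1 and Cdh5 have all tumors below all ovaries, while Vegfa, Angpt1 and Angpt2 overlap, with single high tumors at 22.003 TPM for Angpt1 and 167 TPM for Angpt2.

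The 2 angiopoietins ranged widely among the tumors, and neither passed the test. Angpt1, the vessel-stabilizing ligand, was 22.8, 17.1 and 8.07 TPM in WT ovaries, itself a wide spread, and 0.651, 2.79 and 22.003 TPM at the lowest, median and highest tumor. Its highest tumor, MP tumor 3, lay beside 2 batch 1 tumors at 0.855 and 0.830 TPM. The difference was -1.76 (SE 0.74; limma, Benjamini-Hochberg adjusted P = 0.111), and -2.02 without MP tumor 3 (adjusted P = 0.0481). Exons of an antisense gene, Gm17473, cover 14.2% of the exonic bases of Angpt1, and whether reads were assigned by strand is not given in the sources used here, so these reads cannot be told apart.

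Angpt2, the context-dependent antagonist, was tight in the ovaries, at 36.0, 39.7 and 38.2 TPM, and was 1.24 at lowest, 9.94 at the median and 167 at highest in tumors, a 134-fold range. In 7 tumors it was below all ovaries and in 3 (MP tumors 4, 9 and 10, at 59.0, 40.8 and 167 TPM) above all of them. The difference of -1.54 did not pass (SE 1.09, 95% confidence interval -3.87 to 0.79; limma, Benjamini-Hochberg adjusted P = 0.330), nor did it without MP tumor 10 (-1.94, adjusted P = 0.143).

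Tek, the receptor of both angiopoietins, had the smallest adjusted P of the 10 genes. It was 34.1, 28.3 and 31.6 TPM in WT ovaries and 0.306, 2.38 and 6.88 TPM at the lowest, median and highest tumor, so that the highest tumor was still far below the lowest ovary. Tek fell by 3.37 (SE 0.57; limma, Benjamini-Hochberg adjusted P = 0.000785) and 2.22% of all genes tested had an equal or more negative difference. It passed with any single library left out. The tumor values rest on 8 to 74 reads, against 1229 to 2899 in the ovaries. Tie1, its partner receptor, was 38.1, 34.6 and 41.4 TPM in WT ovaries and 0.183, 5.34 and 33.9 TPM at the lowest, median and highest tumor. All tumors were below all ovaries, but MP tumor 5 came within 1 TPM of the lowest ovary, and the difference of -2.70 (SE 0.92) missed the threshold (limma, Benjamini-Hochberg adjusted P = 0.0565).

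Endoglin was also lower in the tumors. Eng was 93.4, 85.9 and 114 TPM in WT ovaries and 0.622, 8.55 and 39.8 TPM at the lowest, median and highest tumor, with no overlap. Eng fell by 3.39 (SE 0.84; limma, Benjamini-Hochberg adjusted P = 0.0129). The junction genes had lower values in all tumors without passing the test. Pecam1 was 56.7, 54.4 and 51.8 TPM in WT ovaries, against 1.70, 11.6 and 42.5 TPM at the lowest, median and highest tumor (difference -2.23, SE 0.77; limma, Benjamini-Hochberg adjusted P = 0.0590). Cdh5 was 110, 108 and 121 TPM in WT ovaries, against 1.11, 17.4 and 95.9 TPM (difference -2.81, SE 1.00; limma, Benjamini-Hochberg adjusted P = 0.0660). For both genes the ovaries were within a narrow band, while the tumors spread over a 24.9-fold range for Pecam1 and an 86.2-fold range for Cdh5.

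TPM is given per gene length, so levels can also be ranked between genes. In WT ovaries Cdh5 (113 ± 6.92 TPM, SD, n = 3) and Eng (97.7 ± 14.5) stood highest and overlapped, Pecam1 (54.3 ± 2.45) and Vegfa (52.5 ± 15.4) came next and overlapped, and Angpt1 (16.0 ± 7.42) and Flt1 (13.8 ± 2.86) were lowest and overlapped. By tumor median the order began with Vegfa, followed by Cdh5, Pecam1, Angpt2 and Eng, and ended with Angpt1, Tek and Flt1. Neighbours in the tumor order overlapped in their ranges.

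In the test over all 13 libraries, 4 of the 10 members passed as lower (Tek, Eng, Flt1 and Kdr) and 0 as higher, where 14.3% of all genes passed as lower and 2.51% as higher. At an unadjusted P under 0.05 there were 8, where 33.0% of all genes were. The members' median difference was -2.53, against -0.58 over all genes. In 6 members every tumor was below every ovary, a pattern that 16.4% of all genes tested showed. The count rested on the 3 ovaries: without WT ovary 1 or WT ovary 2 it was 1 (Tek), beside 6.7% and 6.92% of all genes, and without WT ovary 3 it was 2, beside 6.86%. Without MP tumor 5 or MP tumor 9, one of which had the highest value of each endothelial receptor and junction gene, it was 7, beside 18.2% and 18.9% of all genes. Eng and Kdr lost the call without any 1 of the ovaries, and Flt1 lost it without WT ovary 1 or WT ovary 2 (limma, Benjamini-Hochberg adjusted P = 0.0631 and 0.0512). Kdr also lost it with a pseudocount of 0.1 (-3.27; limma, Benjamini-Hochberg adjusted P = 0.0515). With median-of-ratios scaling the count was 5, with Pecam1 added, beside 11% (1897) of all genes. Since tissue was read in bulk, fewer endothelial cells and less RNA per endothelial cell cannot be told apart in any of these values.

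Within batch 1, where ovaries and tumors stand side by side, 9 of the 10 members were lower, beside 57.3% of all genes lower and 6.44% higher. The differences among these 9 ran from -5.19 for Eng (limma, Benjamini-Hochberg adjusted P = 3.64e-05) to -1.89 for Vegfa (adjusted P = 0.00217), and the median of all genes was -1.19. Angpt1 did not pass (-1.88, SE 0.97; limma, Benjamini-Hochberg adjusted P = 0.125), with MP tumor 3 at the level of the ovaries. With median-of-ratios scaling within the batch, 8 members were lower, beside 31.6% of all genes lower. Vegfa lost its call (-0.30, 95% confidence interval -0.96 to 0.35; limma, Benjamini-Hochberg adjusted P = 0.369), while Tek (-3.54), Eng (-3.93), Tie1 (-3.77), Cdh5 (-3.69) and Kdr (-3.21) were still more than 3 below the ovaries.

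Members also differed between tumors of different batches. Tumors of batch 1 were compared with those of batches 2 and 3, and 9 of the 10 members were lower in batch 1, beside 30.1% of all genes. The differences ran from -3.23 for Cdh5 (SE 0.67; limma, Benjamini-Hochberg adjusted P = 0.0034) to -1.41 for Flt1 (SE 0.50; adjusted P = 0.0464), and Angpt1 did not pass (-0.17, SE 0.81; adjusted P = 0.889). With median-of-ratios scaling 3 members passed as lower (Cdh5, Tie1 and Eng), beside 9.71% of all genes. With TPM as deposited, 3 passed without MP tumor 2, beside 16.4% of all genes, and 5 without MP tumor 3, beside 20.3%. What separates these tumors beside the number in their names was not tested.

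**Figure D2:**
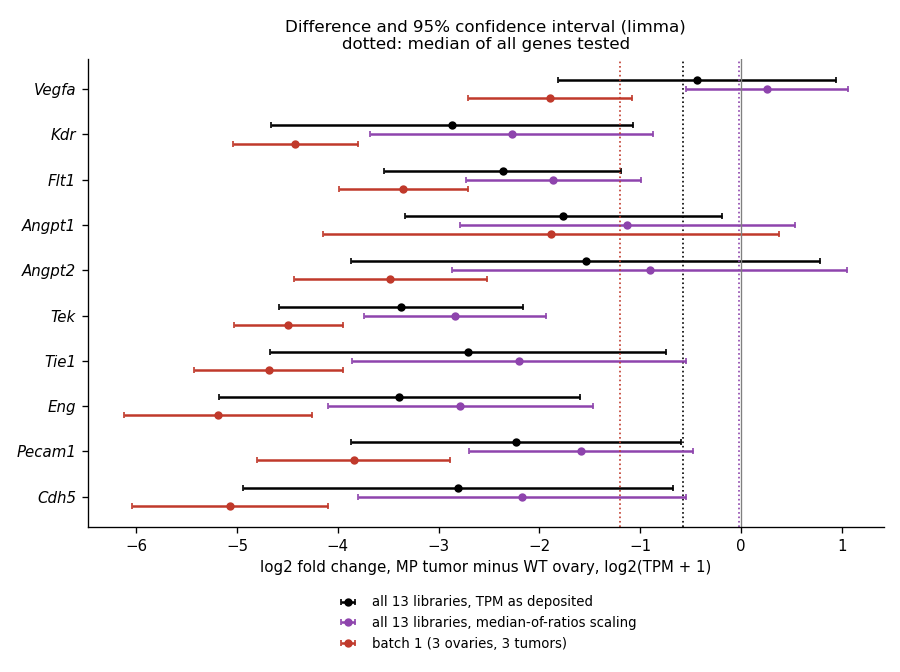
Difference in log2(TPM + 1), MP tumors minus WT ovaries, for each gene (points, with 95% confidence intervals from limma), for all 13 libraries as deposited (black), with median-of-ratios scaling (purple) and within batch 1 (red). Dotted lines mark the median of all genes in each fit, at -0.58, -0.02 and -1.19. The points of all genes except Vegfa lie left of those lines in all 3 fits, while the interval of Vegfa crosses 0 in the first and second.

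To reduce the part of each library's own scale, genes were also set against one another within a library. For this, the mean log2(TPM + 1) of 30 other endothelial markers, none of them a member, was taken from each library. It was 4.37 ± 0.084 (SD, n = 3) in WT ovaries and 2.52 ± 0.89 (n = 10) in tumors, from 1.22 in MP tumor 2 to 3.88 in MP tumor 5. Each difference below was tested by a 2-sided exact permutation test over the 286 ways to choose 3 of 13 libraries, whose smallest P is 0.0035, and P values were adjusted over the 14 differences computed.

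Relative to the endothelial markers of the same library, Tek and Eng were lower in the tumors. Tek minus the markers was 0.67, 0.58 and 0.67 in the ovaries and, in tumors, -1.22 at lowest, -0.87 at the median and -0.37 at highest. All 10 tumors were below all ovaries, by -1.52 on average (exact permutation P = 0.0035, adjusted P = 0.0163). Eng minus the markers was 2.10, 2.15 and 2.49 in the ovaries and -0.52, 0.82 and 1.53 at the lowest, median and highest tumor, again with all 10 tumors lower, by -1.54 (exact permutation P = 0.0035, adjusted P = 0.0163). Tek varied little among tumors on this scale (SD 0.26), less than Eng (SD 0.70). The 30 markers include genes low in the ovaries, such as Tal1 at 3.63 TPM, whose fall the log2(TPM + 1) scale understates. Their median difference was -1.85, but a single marker, Clec14a (-3.51), fell about as far as Tek (-3.37) and Eng (-3.39).

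Flt1 (-0.51; exact permutation P = 0.0315, adjusted P = 0.0881) and Kdr (-1.02; exact permutation P = 0.049, adjusted P = 0.114) did not pass against the markers after adjustment. Pecam1 (-0.38), Cdh5 (-0.96) and Tie1 (-0.85) did not pass either, with adjusted P of 0.338, 0.275 and 0.224 in the same exact permutation tests, and each had at least 1 tumor above all ovaries. Relative to the markers, the 3 batch 1 tumors had the lowest Tie1 (-1.06 to -0.75) and the lowest Cdh5 (-0.31 to 0.65) of all tumors.

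Vegfa was higher in the tumors relative to its receptors and to the markers, though not by its own level, whose difference of -0.43 did not pass. Kdr (-2.87) and Flt1 (-2.36) were lower, so these differences do not show a rise of Vegfa RNA itself. Vegfa minus the mean of Kdr and Flt1, ligand against receptors, was 1.25, 0.98 and 0.97 in the ovaries and 2.51, 3.01 and 4.65 at the lowest, median and highest tumor. All 10 tumors were above all ovaries, by 2.18 (exact permutation P = 0.0035, adjusted P = 0.0163). Against the 30 endothelial markers Vegfa was higher by 1.42 (exact permutation P = 0.00699, adjusted P = 0.0245), also in 10 of 10 tumors. Within batch 1 the ligand-to-receptor difference was 1.99, although Vegfa itself was at -1.89 there, and 3 against 3 libraries cannot give a P under 0.1. With an ovary left out there are 66 choices, the smallest exact permutation P is 0.0152, and 4 of 14 differences at that P adjust to 0.053, so those fits are too small to test the 4 differences again. Their sizes without single libraries ran from -1.58 to -1.48 for Tek, from -1.63 to -1.40 for Eng, from 2.03 to 2.27 for Vegfa against its receptors and from 1.22 to 1.58 for Vegfa against the markers.

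None of the 3 pairs inside a pathway passed these tests. Angpt2 minus Angpt1 was 1.30 ± 0.75 in the ovaries and 1.53 ± 2.33 in tumors (exact permutation P = 0.888, adjusted P = 0.923), from -1.82 in MP tumor 3, where Angpt1 exceeded Angpt2, to 4.66 in MP tumor 9. Flt1 minus Kdr was -1.53 ± 0.041 in the ovaries and -1.02 ± 0.71 in tumors (exact permutation P = 0.266, adjusted P = 0.338). Tek minus Tie1 was -0.27 ± 0.11 in the ovaries and -0.94 ± 0.83 in tumors (exact permutation P = 0.21, adjusted P = 0.326). In each pair the tumors spread more widely than the ovaries.

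**Figure D3:**
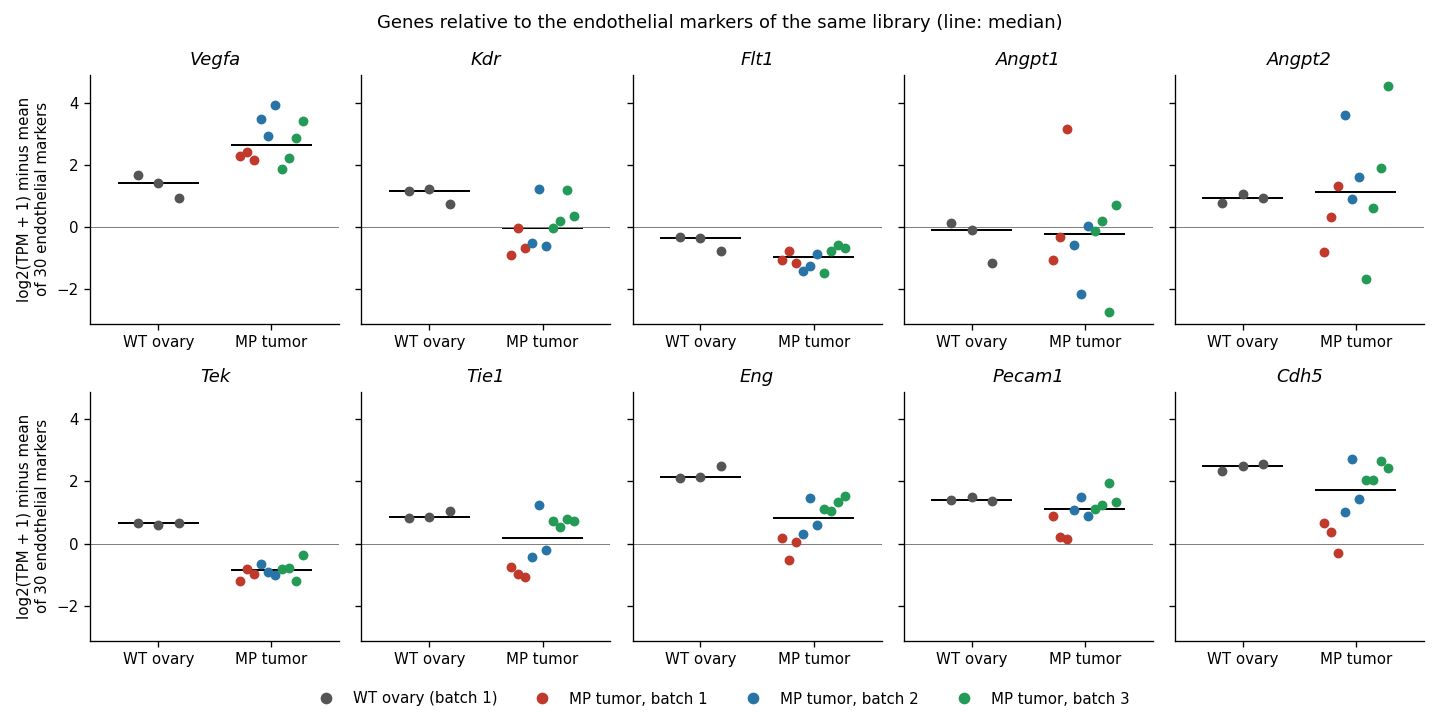
Each gene's log2(TPM + 1) minus the mean of 30 endothelial markers of the same library, in 3 WT ovaries and 10 MP tumors (points coloured by batch, lines at the group median). Tek and Eng of all 10 tumors lie below all ovaries and Vegfa of all 10 lies above, whereas Angpt1 and Angpt2 spread on both sides.

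Among the tumors the endothelial members varied together. Across the 10 tumors on the log2(TPM + 1) scale, Pecam1 correlated with Cdh5 (Pearson's r = 0.98, Spearman's rho = 0.96), Tie1 (r = 0.98, rho = 0.99), Eng (r = 0.98, rho = 0.98), Flt1 (r = 0.96, rho = 0.94), Kdr (r = 0.94, rho = 0.95) and Tek (r = 0.94, rho = 0.93), each with an adjusted permutation P of 0.00044 or below over 11 relations, for r and for rho. These relations held without the 2 tumors farthest from the median of Pecam1 (MP tumors 2 and 3), with r from 0.89 to 0.99, and after centring within batch, with r from 0.82 to 0.95. Batches of 3, 3 and 4 tumors are too small for an r of their own, and the genes share each library's scale and depth.

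The relation of Angpt1 with Pecam1 did not pass (r = -0.15, rho = -0.09; adjusted permutation P = 0.682 and 0.809), with r = -0.02 without MP tumors 2 and 3 and -0.44 after centring. With the mean of 12 mural cell markers the relation did not pass either (r = -0.15, rho = -0.14; adjusted permutation P = 0.682 and 0.774), and its sign depended on single tumors, with r = 0.41 without MP tumors 3 and 5 and -0.40 after centring. For Angpt2 the relation did not pass (r = 0.52, rho = 0.56; adjusted permutation P = 0.151 and 0.116), and it was 0.05 after centring within batch. Vegfa correlated with Pecam1 (r = 0.85, rho = 0.83; adjusted permutation P = 0.00294 and 0.0062), with r = 0.63 without MP tumors 2 and 3 and 0.74 after centring. Vegfa also correlated with the mean of 25 hypoxia-inducible genes (r = 0.90, rho = 0.90; adjusted permutation P = 0.000456 and 0.00143), with r = 0.93 without MP tumors 2 and 9 and 0.76 after centring. Both Vegfa relations depended on scaling: with median-of-ratios scaling, r was 0.54 with Pecam1 (adjusted permutation P = 0.16) and 0.18 with the hypoxia-inducible genes (adjusted permutation P = 0.679).

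**Figure D4:**
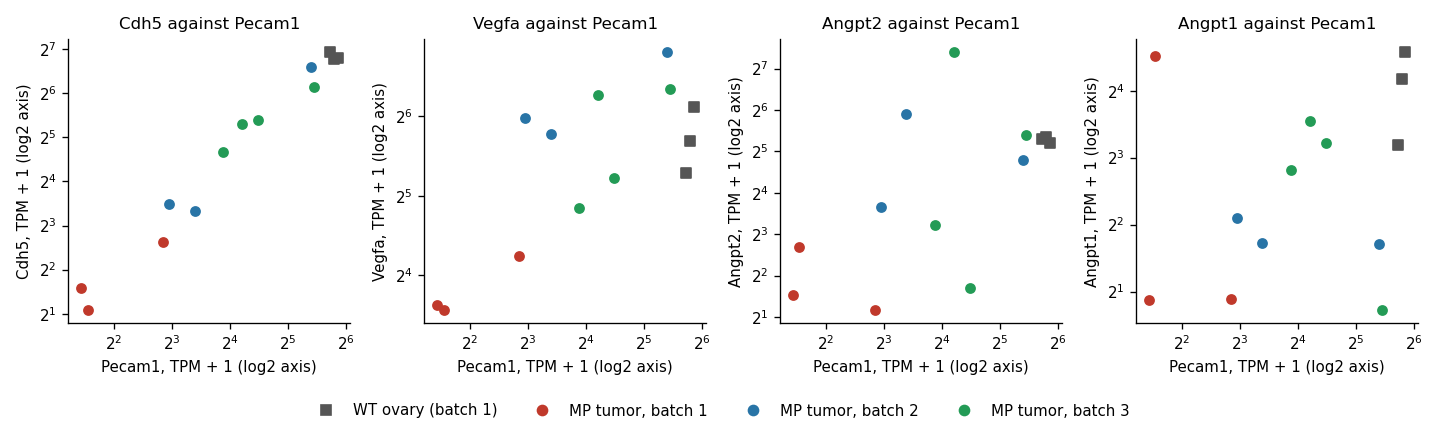
Cdh5, Vegfa, Angpt2 and Angpt1 against Pecam1 (TPM + 1, log2 axes) in 3 WT ovaries (squares) and 10 MP tumors (circles coloured by batch). Cdh5 follows Pecam1 closely (r = 0.98 over tumors), Vegfa less so (r = 0.85), and Angpt1 showed no such relation (r = -0.15).

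Genes with the pattern most like that of the endothelial members were found by Pearson's r, across 10 tumors and centred within batch, with the mean z-score of Kdr, Flt1, Pecam1, Cdh5, Tek, Tie1 and Eng. Of 17277 genes, the nearest were Dll4 (r = 0.99), a Notch ligand of sprouting endothelium, then Gm15720 and Fes, then Cd93 (r = 0.98), a receptor of endothelial and myeloid cells, then Micall2, Dock2, Epas1, Pcdh1, Ushbp1 and Prkar1b (all r = 0.98). Dock2 is a marker of leukocytes and Epas1 encodes HIF-2 alpha. The genes nearest to Vegfa were Zfp748, Mbnl2, Atg9a, Zfp595 and Camkk2 (r = 0.97 to 0.98), of which Zfp748 was at r = 0.31 and Zfp595 at r = 0.71 without centring. Gm15720 was likewise at r = 0.68 with the endothelial members without centring. These r values are the highest of many and carry no test.

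The rest of the VEGF system was read from a list of 7 further genes, of which 2 were lower in tumors and 0 higher, with a median difference of -1.25, where 14.3% of all genes were lower. Without any 1 ovary 1 was lower, beside 6.7% to 6.92% of all genes. Flt4, the VEGFR3 receptor of lymphatic and sprouting endothelium, fell by 2.84 (limma, Benjamini-Hochberg adjusted P = 0.00428), and Vegfc, its ligand, fell by 2.51 (adjusted P = 0.0144). The co-receptor Nrp1 was 32.3 ± 4.55 TPM in ovaries and 0.423 to 22.4 in tumors and just missed the threshold (-2.52; limma, Benjamini-Hochberg adjusted P = 0.0501). Vegfb (0.30) and Pgf (0.24), the further ligands of Flt1 and named here after their values were seen, did not pass (adjusted P = 0.734 and 0.783). Of 3 further genes of the angiopoietin system, Ptprb, the phosphatase that restrains TIE2, fell by 2.63 (limma, Benjamini-Hochberg adjusted P = 0.0269). Angpt4 (-2.16, adjusted P = 0.0589) and Svep1 (-0.27, adjusted P = 0.688) did not pass.

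Of 30 further endothelial markers, 15 were lower in tumors and 0 higher, with a median difference of -1.85, and 29 were negative, where 69.9% of all genes tested were. Cyyr1 (-3.03), Clec14a (-3.51) and the junction gene Cldn5 (-3.36) had the strongest statistics (limma, Benjamini-Hochberg adjusted P = 4.8e-05, 0.00123 and 0.0033). The count moved with the setting: it was 28 within batch 1, beside 57.3% of all genes, 12 with median-of-ratios scaling, beside 11% (1897), and 8 with a pseudocount of 0.1, beside 10.1%. It was 6 or 7 without 1 ovary, beside 6.7% to 6.92% of all genes, and 12 to 22 without 1 tumor, beside 11.9% to 18.9%. The 1 positive marker, Gpihbp1 of capillary endothelium, named after its value was seen, was 4.73 TPM on average in ovaries and 18.96 in tumors (difference 1.59; limma, Benjamini-Hochberg adjusted P = 0.0603). It passed as higher in other settings, among them median-of-ratios scaling (2.20; limma, Benjamini-Hochberg adjusted P = 0.0305), quantile normalization (2.40, adjusted P = 0.0124) and batch 1 alone (1.71, adjusted P = 0.00198), and also without MP tumor 6 or MP tumor 10. The summed TPM of the 30 markers was 799 to 912 in ovaries and 77.8 to 619 in tumors.

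Of 14 tip cell and angiogenic endothelial genes, Aplnr, the apelin receptor of venous and sprouting endothelium, fell by 3.23 (limma, Benjamini-Hochberg adjusted P = 0.00597) and none of the other 13 passed, with Apln at -2.39 and Mcam at -1.51, where 14.3% of all genes were lower. This tip cell count was 1 without any 1 ovary, 1 to 3 without 1 tumor and 12 within batch 1, beside 57.3% of all genes. Of 7 lymphatic markers 5 were lower, with Mmrn1 (-4.12), Prox1 (-1.82) and Lyve1 (-2.99) leading (limma, Benjamini-Hochberg adjusted P of 0.00142 or below), and Flt4 stands in this list too. Of 12 mural cell markers 5 were lower, among them Tbx2 (-3.22), Rgs5 (-2.56) and Cox4i2 (-1.85), beside 14.3% of all genes. That count was 1 or 2 without 1 ovary, beside 6.7% to 6.92% of all genes, 3 to 7 without 1 tumor, 2 with a pseudocount of 0.1 and 9 within batch 1, beside 57.3% of all genes. Of 10 genes of endoglin signaling 3 were lower: Id2 (-2.73), Bmpr2, a receptor for BMP9 (-2.86), and Id3 (-1.85), a count that was 1 without any 1 ovary, 2 to 5 without 1 tumor and 9 within batch 1, against the same shares of all genes. The lymphatic count was 4 without any 1 ovary, 5 without any 1 tumor and 6 within batch 1.

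Among genes that regulate Vegfa or act beside it, the lists went different ways. Of 25 hypoxia-inducible genes 3 were higher and 1 lower, with a median of -0.13. Pdk1, a mitochondrial kinase that holds back pyruvate use, rose by 2.34 (limma, Benjamini-Hochberg adjusted P = 0.000401), from 18.6 ± 0.609 TPM in ovaries to 51.0 to 154 in tumors. Ankrd37 rose by 2.51 and Hilpda, a lipid droplet gene, by 1.13 (adjusted P = 0.0056 and 0.0154), each above all ovaries in 10 of 10 tumors. Of all genes, 2.51% were higher and 14.3% lower. With median-of-ratios scaling 8 of the 25 were higher and 1 lower, where 7.37% of all genes were higher and 11% (1897) lower, and within batch 1 there were 4 higher and 8 lower, where 6.44% of all genes were higher and 57.3% lower. The balance within batch 1 depended on scaling: with median-of-ratios scaling 14 were higher and 3 lower, where 27.1% of all genes were higher and 31.6% lower. Without 1 ovary 1 or 2 were higher and 0 lower, where 0.544% to 0.886% of all genes were higher and 6.7% to 6.92% lower. Of 9 regulators of the pathway 3 were lower, namely Arnt2 (-4.18), Epas1 (-4.36) and Hif1a (-1.76), a count that was 2 without any 1 ovary, 2 to 3 without 1 tumor and 8 within batch 1.

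Of 13 secreted inhibitors of angiogenesis 4 were lower, among them Thbs1 (-4.54), Adamts1 (-2.77) and the matrix protein Sparc (-2.28), a count that was 1 or 2 without 1 ovary and 11 within batch 1. Of 14 other angiogenic ligands 2 were lower, Tgfb1 (-2.59) and the chemokine Cxcl12 (-2.43), which binds CXCR4, where 14.3% of all genes were lower. That count was 0 without any 1 ovary, beside 6.7% to 6.92% of all genes, and 0 with a pseudocount of 0.1, 0 to 6 without 1 tumor and 11 within batch 1, beside 57.3% of all genes. Of the 41 genes that passed among the 3 named in each list, 5 lost the call without at least 1 of the tumors (Tgfb1, Cxcl12, Hif1a, Id3 and Sparc). Without 1 of the ovaries 20 of the 41 lost the call at least once, among them Vegfc, Ptprb, Hilpda and the 2 globin genes named below, while 21 did not, among them Flt4, Aplnr, Epas1, Pdk1 and Thbs1. With median-of-ratios scaling Cox4i2, Id3, Sparc, Cxcl12 and Cd52 lost it (limma, Benjamini-Hochberg adjusted P from 0.0613 to 0.281).

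**Figure D5:**
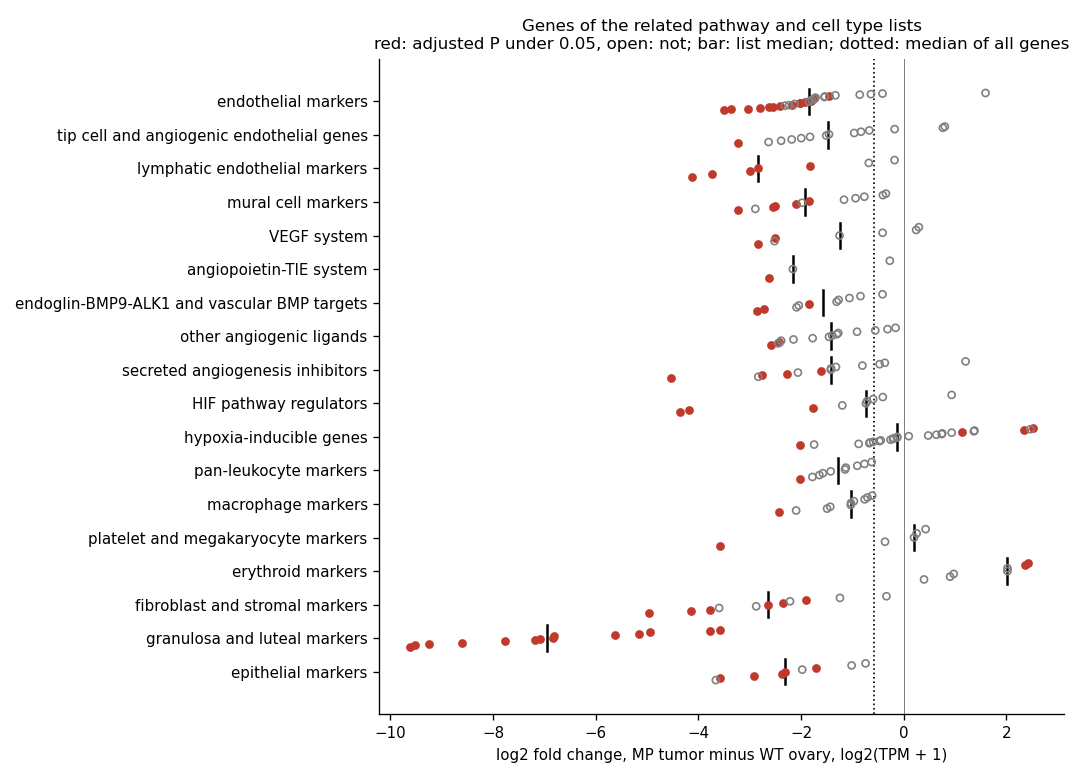
Difference in log2(TPM + 1), MP tumors minus WT ovaries, for each tested gene of 18 lists (points red where limma's adjusted P passed, open where not; bars at list medians; dotted line at the median of all genes, -0.58). The medians of all lists except the hypoxia-inducible, platelet and erythroid ones lie left of the dotted line, whereas 2 erythroid and 3 hypoxia-inducible genes are red on the right.

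Markers of other cell types were read from further lists, where 14.3% of all genes were lower and, without 1 ovary, 6.7% to 6.92%. All 14 granulosa and luteal markers were lower, with a median of -6.96, including Cyp19a1, Lhcgr and Inhba, which were at 0.183, 5.79 and 2.47 TPM or below in every tumor. Of 11 fibroblast markers 6 were lower (Tcf21 -4.95, Pdgfra -4.13 and Gli1 -2.34 leading), a count that was 1 without any 1 ovary, and of 9 epithelial markers 5 (Epcam -3.58, Cdh1 -2.91 and Esrp1 -2.32 leading), which was 4 without any 1 ovary. The keratins Krt19 (-3.66), Krt8 (-1.98) and Krt18 (-0.74) and the junction gene Cldn4 (-1.01) did not pass. Leukocyte markers, which bear on Pecam1 since blood cells also express it, had 1 of 10 lower (Cd52, -2.02), a share near that of all genes, with Ptpn6 (-1.58) and Dock2 (-1.14) not passing, and a summed TPM of 169 to 329 in ovaries and 44.6 to 255 in tumors. That count was 0 or 1 without 1 ovary, 1 to 4 without 1 tumor and 0 with median-of-ratios scaling. Among macrophage markers, Mpeg1 (-1.49) and Csf1r (-2.10) did not pass, and the median difference of the list was -1.03. Within batch 1, 9 leukocyte, 8 macrophage, 10 fibroblast and 6 epithelial markers were lower, beside 57.3% of all genes.

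Of 5 platelet markers, which also bear on Pecam1, 1 was lower, Itgb3 (-3.57), an integrin that endothelial cells express too, while Gp1ba (-0.36) and Ppbp (0.43) did not pass, where 14.3% of all genes were lower. That count was 0 or 1 without 1 ovary. Of 7 erythroid markers 2 were higher, Hbb-bt by 2.42 and Hbb-bs by 2.37 (limma, Benjamini-Hochberg adjusted P = 0.0231 and 0.0248), with Hba-a2 at 2.02 (adjusted P = 0.0627), where 2.51% of all genes were higher. Both lost the call in limma's test whichever of the 3 ovaries was left out, where 0.544% to 0.886% of all genes were higher. The summed TPM of the whole erythroid list was 226 to 432 in ovaries and 451 to 6181 in tumors. The part of these cells in the differences of the members was not tested.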

How the data were processed

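Bulk RNA of 3 WT ovaries and 10 MP tumors was used, grouped by the sample labels. The authors deposited TPM values with gene identifiers, coordinates and lengths that match GENCODE M21 (GRCm38). The labels' protocol text names STAR alignment to a human build, HTSeq and RPKM, while the submitters' processing notes list FastQC 0.11.5, Trimmomatic 0.36, STAR 2.5.3a, featureCounts 1.6.3 and mm10, so unit and build were taken from the table. TPM sums to 1000000 per library and is therefore a share.

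TPM times gene length gave whole reads in 100% of values (within 0.01 reads), from which depth was recovered. For a 1 kb gene, 1 read amounted to 0.0513 to 0.109 TPM in ovaries and 0.114 to 0.790 in tumors. Pairs of libraries of 1 group differed by more than sampling noise (chi-square per degree of freedom 25.9 to 591), so none was counted as a repeat. Labels give separate samples, and P values measure the spread between them. 0 columns were left unused.

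Tests on log2(TPM + 1) were restricted to genes reaching 1 TPM in 3 or more libraries and were run with limma 3.58.1 (trended, robust) in R 4.3.3, with no covariate, and Benjamini-Hochberg adjusted P values under 0.05 passed. A fold on this scale understates low genes. Within-library differences used exact permutation tests and correlations 100000 resamples (scipy 1.17.1, pandas 2.3.3, Python 3.11.15, matplotlib 3.10.9). The scripts were tested on simulated data. Alternatives varied the pseudocount, filter, scaling, batch, replicate block, length trend, limma options, voom on recovered reads and single libraries.

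The members and lists were chosen with earlier results of these data known. Named genes are the members, the 3 tested genes of each list with the largest moderated statistic, and the genes most like the members across tumors. A named gene of the macrophage list is not reported here. Figf and Ahsp were not used here, since no row bears these symbols, and Ccl21a is listed at 0. Replicate numbers 1 to 3 are shared by ovaries and tumors, but these are different animals. Exons of Eng share 1.51% of their bases with Fpgs on the opposite strand.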

Additional observations from a re-analysis of the deposited data

Results flagged for a closer look

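Angpt1 was 22.003 TPM in MP tumor 3, far from the other 9 tumors, of which the nearest was MP tumor 10 at 10.7 TPM, and this gap took 0.527 of the whole range. Angpt2 was 167 TPM in MP tumor 10, with the nearest tumor, MP tumor 4, at 59.0 TPM and a gap of 0.651 of the range. Of 25 measures looked at in this way among the tumors, 2 stood out, where chance gives about 1.25. The value in MP tumor 3 rests on 1004 reads and the value in MP tumor 10 on 958, so depth does not limit either.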

How the results depend on the processing

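The members lower in tumors numbered 4 with TPM as deposited (14.3% of all genes lower), 5 with median-of-ratios scaling (11%), 6 with a length trend removed (10.3%), 3 with a pseudocount of 0.1 (10.1%), where Kdr lost its call, 3 under a stricter filter (7.53%), 7 with quantile normalization (12.1%), 7 with voom on recovered reads (23.4%), 9 within batch 1 (57.3%), 9 with batch as a covariate (49.4%) and 8 within batch 1 with median-of-ratios scaling (31.6%), the last chosen after seeing the data. Leaving out single libraries gave 1 to 7 (6.7% to 18.9%). No member was higher in any of these. Genes lower numbered 2463, between 900 with a stricter filter and 9902 within batch 1, and genes higher 433, between 94 and 4681. The share of negative differences was 69.9% as deposited and 50.8% with median-of-ratios scaling. The block on replicate number also gave 9 members lower (56.9%), but rests on batch 1 alone: same-numbered libraries deviated together with r of -0.096, -0.021 and 0.0012, so the numbers pair nothing. Members lower in batch 1 tumors (9) became 3 with median-of-ratios scaling, 1 with quantile normalization and 3 to 9 without single tumors.

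The Vegfa difference turned to 0.26 with median-of-ratios scaling, 0.18 with quantile normalization and 0.28 with a length trend removed. Within batch 1, Angpt2 minus Angpt1 turned to -1.60, Angpt2 minus the endothelial markers to -0.64 and Tek minus Tie1 to 0.19 (0.19 also with the replicate block), and Vegfa minus its receptors was 1.99 and could not pass. Without single libraries these ran from -0.12 to 0.63, from -0.055 to 0.63, from -0.79 to -0.53 and from 2.03 to 2.27, Angpt1 minus the markers from -0.30 to 0.36, and the r of Angpt1 from -0.44 to 0.25 with Pecam1 and from -0.39 to 0.29 with mural markers. Of list genes that did not pass, Svep1 turned to 0.041, 0.34 and 0.86 (median-of-ratios scaling, quantile normalization, length trend), Gp1ba to 0.17 and 0.18 (quantile normalization, length trend) and Ppbp to -0.60 in batch 1, with the batch covariate and with the replicate block, and -0.29 in batch 1 with median-of-ratios scaling, where Id3 was 0.021. The cause was not tested. Flt1 left the test under the stricter filter. Depth limits Tek and Tie1 most, with as few as 8 and 5 reads in a tumor.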
